A study of Mus musculus with 12 samples.

Results

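The genes of the proteasome were followed in the olfactory bulb (OB) of Tg2576 mice and their wild-type (WT) littermates. Members were all array probesets whose gene symbol starts with Psma, Psmb, Psmc, Psmd, Psme or Psmg followed by a digit, with 1 probeset per gene, and 49 of the 19505 gene symbols on the array met this rule. Of these, 47 encode subunits, activators or assembly chaperones. The other 2, Psmc3ip and Psme3ip1, carry the name only because their products bind a proteasome protein, and they were kept as their own class. Psmb5, the third catalytic subunit of the constitutive core, had no named probeset and was not analysed here. Messenger RNA was measured on Affymetrix Clariom S arrays in 12 female mice, 1 array per mouse, in 4 groups of 3. The groups were Tg2576 mice of 6 months, WT mice of 6 months, Tg2576 mice of 2 months and WT mice of 2 months. Tg2576 mice carry a human APP transgene with the Swedish familial Alzheimer's disease mutation, which the prion promoter drives, on a C57BL/6/SJL background that the study calls inbred. WT mice came from the same litters without the transgene, and the labels name no treatment. The sample labels give the younger mice an age of 2 months, while a table of animals in the study gives them another.

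The proteasome is the large protease that degrades ubiquitin-tagged proteins in the cytosol and nucleus. Its core particle is a barrel of outer alpha rings, which form the gate, and inner beta rings, which hold the catalytic sites. A regulatory particle caps the barrel: its base unfolds the substrate with a ring of ATPases, and its lid removes the ubiquitin chain. Interferon exchanges the catalytic beta subunits for induced ones that favour antigen processing, and activators of the Psme family can open the core in place of the regulatory particle. In neurons the proteasome turns over synaptic and misfolded proteins, and its activity has long been studied in Alzheimer's disease. These arrays measured mRNA and not the assembled complex or its activity.

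All values are log2 intensities that the authors made comparable between arrays by RMA. Array medians lay between 8.24 and 8.27 and correlations between arrays between 0.978 and 0.995. The markers of mitral and tufted cells (10.58 to 11.02 on average) and of bulb interneurons (11.6 to 11.9) were bright on every array of this tissue. Hybridization controls, which are spiked into each sample, averaged 12.52 and 12.06 in WT mice of 6 months replicates 2 and 3, against 11.26 to 11.66 on the other 10 arrays. Markers of the leptomeninges, the membranes around the brain, averaged 8.45 to 9.07 in Tg2576 mice of 2 months and 7.89 to 8.34 in WT mice of 2 months, and all 10 of them lay above 0 in that comparison (Omd, Ogn and Igf2 passed the limits used below). Sample numbers run through 1 group after another. The labels do not give the order or batch in which the arrays were processed, so the part of these in the group differences cannot be examined.

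Genotypes were compared with limma, in 1 fit to the 4 group means over all 22206 gene probesets. A change was called where the p before adjustment was under 0.01 and the fold over 1.3 or under 0.7. At 2 months, 2 of the 49 members were called, Psmd8 higher and Psme4 lower in Tg2576 mice, where 0.572% of all gene probesets were called (0.401% higher and 0.171% lower). At 6 months, 1 of the 49 was called, Psmd11 lower, where 1.04% of all gene probesets were called (0.644% higher and 0.401% lower). No member passed a Benjamini-Hochberg adjusted p of 0.05 in limma in any comparison; 0.00450% of all gene probesets did by age in WT mice, and none did in the other comparisons. At an unadjusted p under 0.05, 3 members stood at 6 months, where 8.61% of all probesets did, and 2 at 2 months, where 6.32% did. Psme4 had been singled out with earlier results of these data known, so its call is a description and no independent evidence. In bulk tissue, fewer cells of a type and less RNA per cell cannot be told apart.

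**Figure D1:**
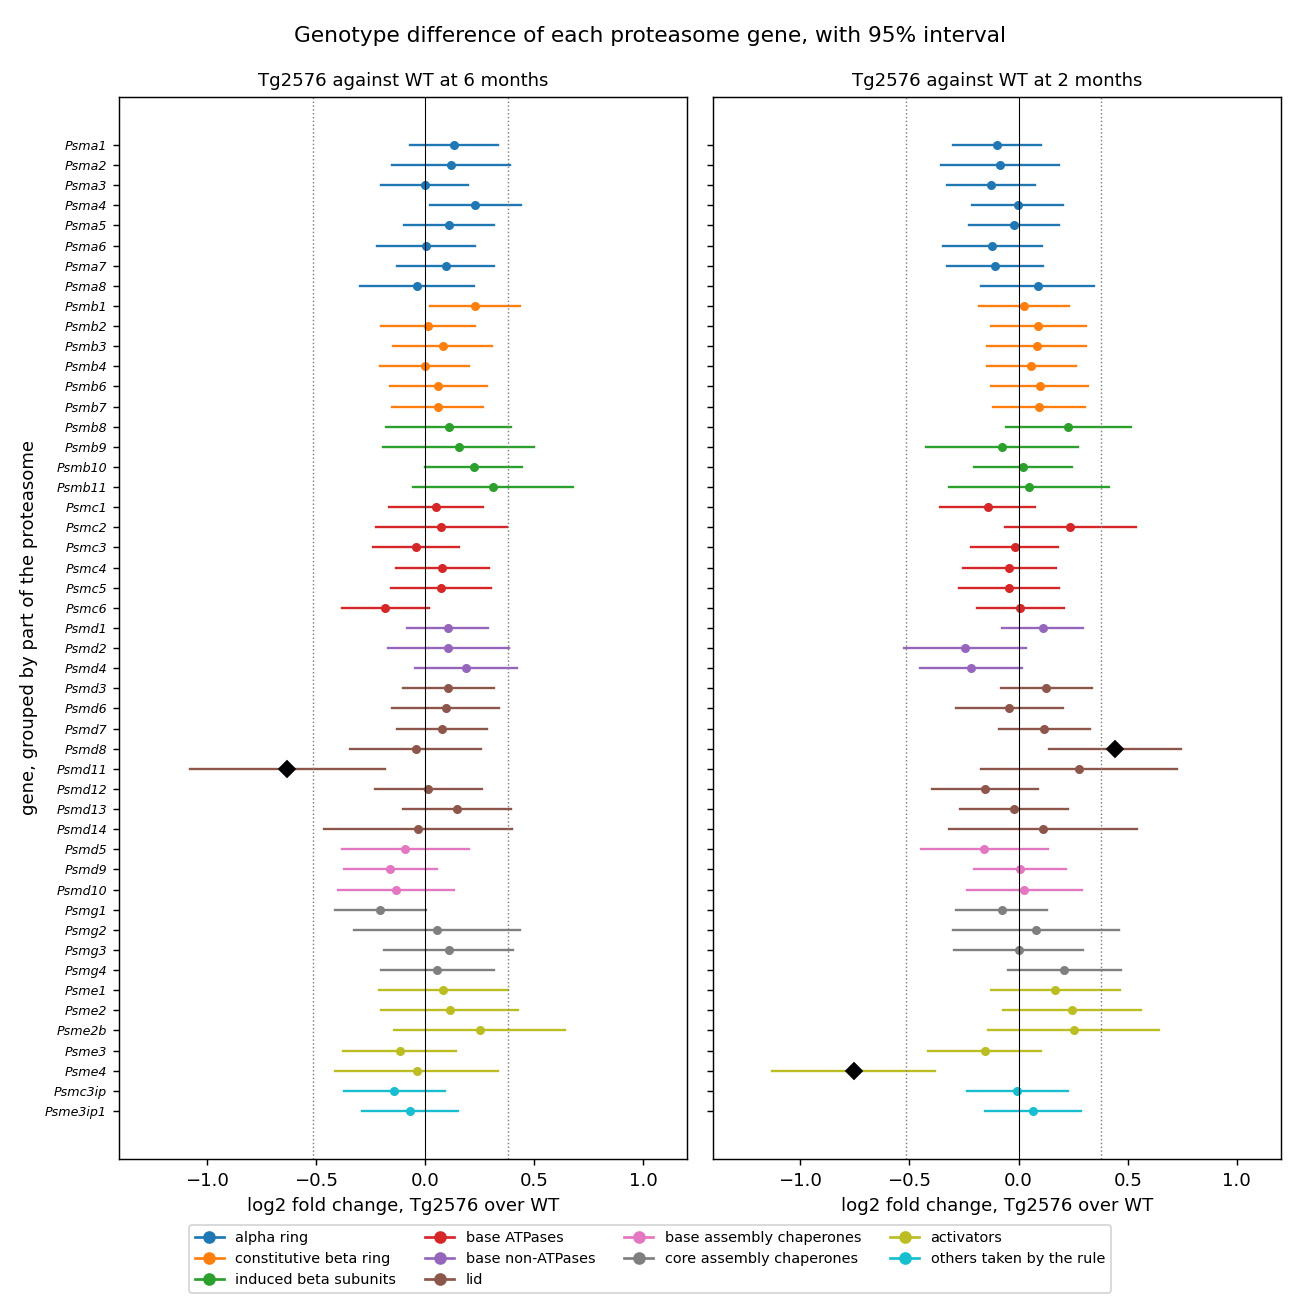
Log2 fold change of Tg2576 over WT mice (horizontal axis) for each of the 49 proteasome genes, with 95% intervals from limma, at 6 months (left) and 2 months (right), coloured by part of the proteasome. Dotted lines mark the fold limits of 0.7 and 1.3, and black diamonds mark Psmd11 at 6 months and Psmd8 and Psme4 at 2 months, which were called.

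Psme4 encodes a large activator of the core that works without ATP and without ubiquitin and is known for the degradation of acetylated histones. It was the member with the lowest fold change at 2 months. Its log2 intensity was 8.49, 8.23 and 8.64 in Tg2576 mice of 2 months, against 9.58, 9.003 and 9.03 in WT mice of 2 months. Every Tg2576 array lay below every WT array at this age. The group averaged 8.45 ± 0.21 in Tg2576 mice and 9.21 ± 0.33 in WT mice (SD, n = 3 each), a log2 fold change of -0.76 ± 0.17 (SE; 95% interval -1.13 to -0.38; limma adjusted p = 0.762). On this scale Psme4 stood at percentile 0.0766 of all gene probesets. The call held in each of 12 fits that left out 1 array, with values between -0.86 and -0.57. It was lost with the mean of the leptomeningeal markers as a covariate, where the value was -0.65.

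At 6 months Psme4 measured 8.59, 8.59 and 8.72 in Tg2576 mice, against 9.002, 8.38 and 8.63 in WT mice. The WT arrays lay on both sides of the Tg2576 arrays. The log2 fold change was -0.04 (95% interval -0.41 to 0.33; limma adjusted p = 0.969). Without WT replicates 2 and 3, the arrays with the highest hybridization controls, it was -0.37, and with the hybridization controls as a covariate -0.44, neither of them called. The genotype difference moved by 0.72 ± 0.25 between the ages (6 months minus 2 months; limma adjusted p = 0.842), which was not called.

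Across age, the level of Psme4 was 8.67 ± 0.31 in WT mice of 6 months and 9.21 ± 0.33 in WT mice of 2 months (SD, n = 3 each). The groups barely parted, with 9.002 on the highest array of 6 months and 9.003 on the lowest of 2 months. The log2 difference of -0.54 ± 0.17 was called (limma adjusted p = 0.283). It was the only one of 49 members called in WT mice by age, where 1.74% of all gene probesets were called and 0.293% were called lower. In Tg2576 mice the same difference was 0.18 (95% interval -0.19 to 0.55; limma adjusted p = 0.93). The WT difference by age lost its call in 7 of 12 fits without 1 array, ranged between -0.70 and -0.35 over them, and was -0.20 without both WT replicates 2 and 3 of 6 months. Among the 7 were WT replicate 1 of 2 months (-0.35) and WT replicates 2 (-0.39) and 3 (-0.52) of 6 months. The other 4, all Tg2576 arrays of 6 months and Tg2576 replicate 1 of 2 months, left the value at -0.54. Of 10 alternative fits to other arrays or with other settings, 5 ended the call: the hybridization controls as a covariate (-0.17), the removal of both WT arrays (above), array weights (-0.44), the leptomeningeal mean as a covariate (-0.54) and a fit to the WT arrays alone (-0.54). With array weights Psmd8 was called by age in WT mice instead.

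Psmd8, the last subunit to join the lid in yeast, where it lets the lid bind the base, was the member with the highest fold change at 2 months. It measured 11.03, 10.93 and 11.03 in Tg2576 mice of 2 months, against 10.28, 10.42 and 10.97 in WT mice of 2 months. Tg2576 arrays were close together, and the third WT array lay among them. The log2 fold change was 0.44 ± 0.14 (SE; 95% interval 0.14 to 0.74; limma adjusted p = 0.762). At 6 months the values were 10.87, 10.88 and 10.94 in Tg2576 mice and 10.91, 10.98 and 10.92 in WT mice, a log2 fold change of -0.04 (95% interval -0.35 to 0.26). WT mice of 2 months replicates 1 and 2 (10.28 to 10.42) therefore lay apart from the other 10 arrays of the study (10.87 to 11.03), with a gap of 0.45 between the sets. That split was noticed after the values were seen.

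The Psmd8 call was lost when any 1 of the Tg2576 arrays of 2 months or WT replicate 1 or 2 was left out, and the value without 1 array ranged between 0.30 and 0.65. The lowest value, 0.30, came without WT replicate 1, and the highest, 0.65, without WT replicate 3. With the leptomeningeal mean as a covariate the fold change was 0.25, which was not called. It was not called either, at an unchanged 0.44, in a fit to the arrays of 2 months alone and without WT replicates 2 and 3 of 6 months. The change of the genotype difference between the ages was -0.49 ± 0.20 and the difference by age in WT mice 0.38 ± 0.14 (SE), neither of them called (limma adjusted p = 0.842 and adjusted p = 0.328).

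Psmd11, the lid subunit that holds lid, base and core together and raises proteasome activity when overexpressed in worms and human stem cells, was the member with the lowest fold change at 6 months. It measured 9.78, 9.81 and 9.82 in Tg2576 mice of 6 months, against 10.07, 10.44 and 10.79 in WT mice of 6 months. The Tg2576 arrays were nearly equal and all lay below the WT arrays, which were spread out. Group means were 9.80 ± 0.018 in Tg2576 mice and 10.43 ± 0.36 in WT mice (SD, n = 3 each), a log2 fold change of -0.63 ± 0.21 (SE; 95% interval -1.08 to -0.18; limma adjusted p = 0.479). At 2 months Psmd11 measured 10.45, 10.51 and 9.91 in Tg2576 mice, against 9.69, 9.89 and 10.45 in WT mice. The groups overlapped at that age, with a log2 fold change of 0.28 (95% interval -0.17 to 0.72; limma adjusted p = 0.892).

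The genotype difference of Psmd11 fell by 0.91 ± 0.30 on the log2 scale between the ages (6 months minus 2 months; limma adjusted p = 0.842). This was the only one of 49 members called for that difference, which had no fold limit, where 0.779% of all gene probesets were called and 0.518% were called lower. At an unadjusted p under 0.05 the difference stood for 4 members, Psmd11, Psme4, Psmd8 and Psmd4, where it did for 5.71% of all probesets. Psmd11 was also the member with the highest spread within groups (pooled SD 0.31, percentile 96.3 of all gene probesets). Its 12 values fell on both sides of a gap of 0.37, with 7 arrays between 9.69 and 10.07 and 5 between 10.44 and 10.79. The 5 were Tg2576 mice of 2 months replicates 1 and 2, WT mice of 2 months replicate 3, and WT mice of 6 months replicates 2 and 3, so that 3 of the 4 groups had arrays above the gap.

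Hybridization controls moved with Psmd11. Within each of the 4 groups the array with the lowest controls had the lowest Psmd11, as for Psmb2 among the members (2 of 49, or 4.08%, against 1.36% of all gene probesets), a description made after the values were seen. With the controls as a covariate the fold change at 6 months was -0.24, and without WT replicates 2 and 3 it was -0.27, neither of them called. The change between the ages was -0.54 under both alternatives and was not called. Neither the fold change at 6 months nor the change between the ages was called with the leptomeningeal mean as a covariate (-0.67 and -0.84) or, at unchanged values, with a trended robust prior, under which Psme4 was called for the change between the ages instead. The call at 6 months was lost in 7 of 12 fits without 1 array, with values between -0.81 and -0.45. It was -0.45 without WT replicate 3, -0.63 without WT replicate 2 and between -0.64 and -0.62 without each of the Tg2576 arrays of 6 months. Without Tg2576 replicate 1 or WT replicate 2 of 2 months the call was lost with the value unchanged at -0.63. The part of the controls in the result was not tested beyond these fits.

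**Figure D2:**
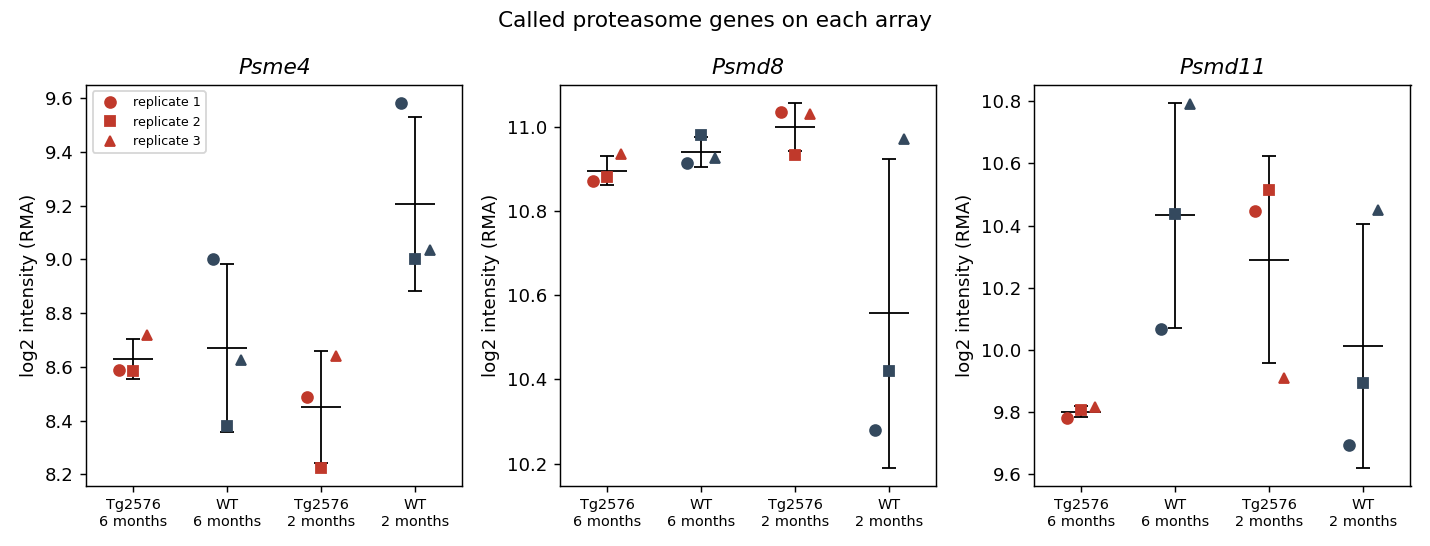
Log2 intensity (vertical axis, RMA) of Psme4, Psmd8 and Psmd11 on each of the 12 arrays, by group, with Tg2576 mice in red and WT mice in dark blue. Symbols mark the replicate, and bars give the mean and SD of 3 mice. Psme4 was high in WT mice of 2 months, Psmd8 was low in 2 WT arrays of 2 months, and Psmd11 was low and even in Tg2576 mice of 6 months.

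**Figure D3:**
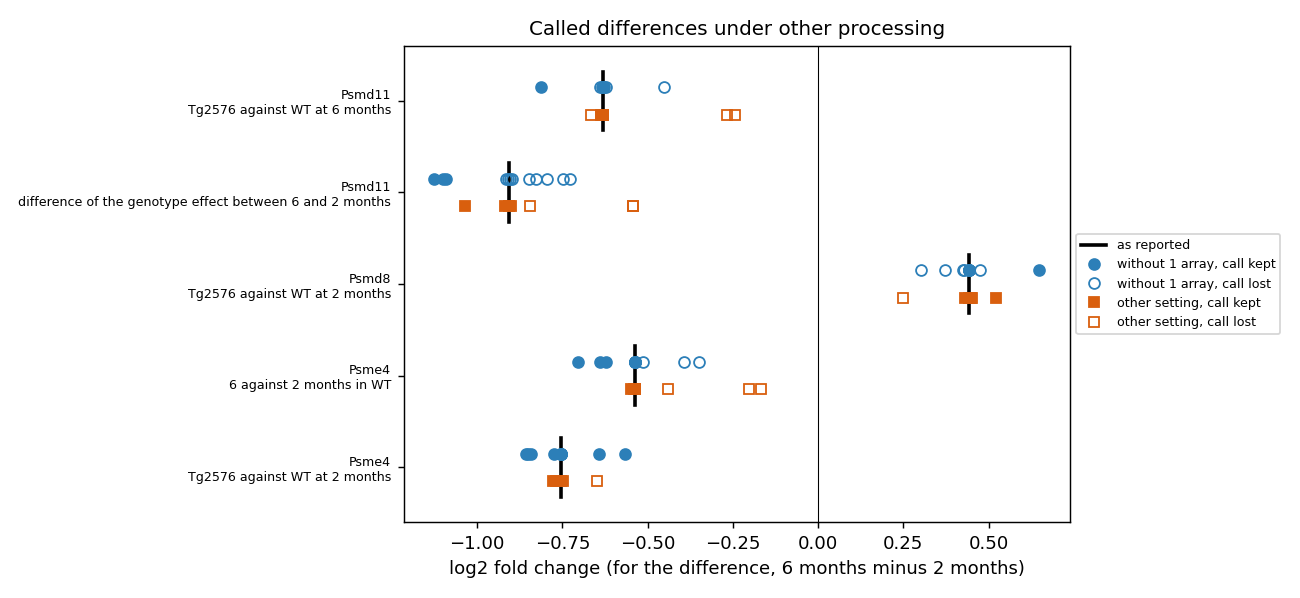
Log2 fold change (horizontal axis; for the difference, 6 months minus 2 months) of the 5 called results of Psmd11, Psmd8 and Psme4, as reported (black bar), in 12 fits without 1 array (blue circles) and in other settings (orange squares), filled where the call was kept. All circles of Psme4 at 2 months are filled, and the other 4 results have open circles.

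The start regions of these 3 genes are shown because they carried the calls. RefSeq windows of 300 bases, 250 before and 50 after the start site on GRCm38.p6, were matched for 41 of the 49 members. Psme4 lies at chr11:30771525-30771824 on the plus strand (GC 65.3%, 25 CpG). Capitals mark a match to the core of the antioxidant response element, TGACNNNGC, on the minus strand. The match begins 7 bases before the start site and runs across it.
Psme4: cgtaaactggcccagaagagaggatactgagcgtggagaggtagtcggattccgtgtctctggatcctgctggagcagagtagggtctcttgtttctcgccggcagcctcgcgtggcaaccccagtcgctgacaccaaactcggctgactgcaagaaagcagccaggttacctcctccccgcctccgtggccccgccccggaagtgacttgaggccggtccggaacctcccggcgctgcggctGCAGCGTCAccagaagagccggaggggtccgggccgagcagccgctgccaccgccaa
The window of Psmd8 is chr7:29180624-29180923 on the minus strand (GC 53.7%, 15 CpG), and that of Psmd11 is chr11:80428365-80428664 on the plus strand (GC 61.7%, 26 CpG). Neither held any of the 3 motifs searched, so they have no capitals.
Psmd8: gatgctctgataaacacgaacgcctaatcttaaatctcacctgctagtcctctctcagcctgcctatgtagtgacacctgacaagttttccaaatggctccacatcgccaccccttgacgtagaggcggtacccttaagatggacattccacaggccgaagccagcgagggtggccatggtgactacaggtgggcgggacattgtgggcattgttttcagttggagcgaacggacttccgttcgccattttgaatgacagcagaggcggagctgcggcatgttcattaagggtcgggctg
Psmd11: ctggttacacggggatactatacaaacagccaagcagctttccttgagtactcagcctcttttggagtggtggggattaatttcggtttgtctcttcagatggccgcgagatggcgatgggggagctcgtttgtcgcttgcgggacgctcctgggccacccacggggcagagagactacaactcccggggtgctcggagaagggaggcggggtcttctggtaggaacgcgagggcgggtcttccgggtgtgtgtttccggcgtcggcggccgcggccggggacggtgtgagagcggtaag

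The 3 motifs were searched on both strands of 45 member windows and of 32851 windows of all genes. TGACNNNGC, through which the factor Nrf1 (Nfe2l1) raises proteasome genes when the protease is inhibited, was found in 11.1% of member windows (Psmb6, Psmc6, Psmd12, Psmd9 and Psme4) and 12.4% of all windows. The CCAAT box was found in 35.6% of member windows and 37.4% of all. TTTC followed after any 2 bases by TTTC, the letters of an interferon response element, was found in 11.1% of member windows (Psmb3, Psmd4, Psmd9, Psme1 and Psmg4) and 3.44% of all. Among the holders of TGACNNNGC the log2 fold changes at 2 months ran between -0.76 for Psme4 and 0.10 for Psmb6. A match describes letters and not a bound site. Both Psme4 and Psmd11 are among 10 members on chromosome 11, and none of the 4 nearest measured genes around Psme4, Psmd8 or Psmd11 was called in any comparison.

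The remaining activators were not called. Psme1 and Psme2 encode the paired subunits of the activator that interferon raises. The log2 fold change of Psme1 was 0.08 at 6 months and 0.17 at 2 months. That of Psme2 was 0.11 at 6 months (95% interval -0.20 to 0.43) and 0.25 at 2 months (95% interval -0.07 to 0.56). At 2 months Psme2 measured 10.16, 9.89 and 10.44 in Tg2576 mice, against 9.64, 10.13 and 9.99 in WT mice, so the groups overlapped. Psme2b, a near-identical copy of Psme2, had 0.25 at both ages, and signal of one copy can reach the probes of the other. Psme3, the nuclear activator, had -0.12 at 6 months and -0.15 at 2 months.

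Among the 8 lid genes, those other than Psmd8 and Psmd11 had log2 fold changes between -0.03 (Psmd14) and 0.15 (Psmd13) at 6 months, and between -0.16 (Psmd12) and 0.13 (Psmd3) at 2 months. Psmd14, the deubiquitinase of the lid, measured 8.44, 8.60 and 8.40 in Tg2576 mice of 2 months and 8.21, 8.09 and 8.80 in WT mice of 2 months. Its pooled SD of 0.30 was the next highest after that of Psmd11, and its 95% interval at 2 months, -0.32 to 0.54, was correspondingly wide.

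The base held Psmd4, a ubiquitin receptor, which leaned in opposite directions at the 2 ages. It measured 10.31, 10.34 and 10.32 in Tg2576 mice of 6 months against 10.17, 10.15 and 10.10 in WT mice of 6 months, and every Tg2576 array was the higher. The corresponding values at 2 months were 10.27, 10.09 and 10.31 in Tg2576 mice against 10.56, 10.55 and 10.21 in WT mice, which overlapped. Its log2 fold change was 0.19 (95% interval -0.05 to 0.42) at 6 months and -0.22 (95% interval -0.45 to 0.02) at 2 months. The difference between them, 0.40 ± 0.15 (limma adjusted p = 0.842), was not called. Psmd2, the scaffold that docks shuttle factors, had 0.11 at 6 months and -0.25 at 2 months. In WT mice of 2 months, replicates 1 and 2 of Psmd2 (11.21 on both) stood above replicate 3 (10.77). The largest gap over the 12 arrays set these 2 arrays above the other 10 for Psmd2, Psmd4, Psmd12 (gap 0.17) and Psmc1 (0.11). It set the same 2 arrays below the other 10 for Psmd8 and Psmb2 (0.089). Psmd1, the large scaffold of the base, varied least of all members within groups (pooled SD 0.043, percentile 0.158). Psmd1 was higher in all Tg2576 arrays at both ages, with log2 fold changes of 0.10 at 6 months and 0.11 at 2 months, neither of which was called. At 6 months the groups barely parted, with 10.7072 on the lowest Tg2576 array and 10.7065 on the highest WT array. The 6 ATPases lay between -0.18 (Psmc6) and 0.08 (Psmc4) at 6 months and between -0.14 (Psmc1) and 0.24 (Psmc2) at 2 months, with no call. Psmc6 measured 9.29, 9.27 and 9.36 in Tg2576 mice of 6 months and 9.38, 9.50 and 9.60 in WT mice of 6 months, which did not overlap (limma adjusted p = 0.615).

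In the core, no gene was called in any of the 5 comparisons. The 8 alpha genes had a median log2 fold change of 0.10 at 6 months, with 6 above 0, and of -0.09 at 2 months, with 1 above 0. In WT mice all 8 lay below 0 by age (median -0.12, highest -0.002), 6 months against 2 months, where 11473 of 22206 gene probesets did. Psma4 was the highest alpha gene at 6 months, with 9.57, 9.59 and 9.47 in Tg2576 mice against 9.30, 9.41 and 9.23 in WT mice. The groups did not overlap, and its log2 fold change of 0.23 ± 0.10 was under the fold limit (limma adjusted p = 0.546). Psma3 was the lowest at 2 months (-0.12), and Psma8, the testis form of Psma7, the lowest at 6 months (-0.04) and highest at 2 months (0.09).

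Among the constitutive beta genes, Psmb1 measured 12.02, 12.06 and 12.08 in Tg2576 mice of 6 months and 11.77, 11.73 and 11.96 in WT mice of 6 months. Tg2576 arrays all lay above the WT arrays, by a log2 fold change of 0.23 ± 0.10 (limma adjusted p = 0.543), also under the fold limit. At 2 months its fold change was 0.02. The catalytic subunits Psmb6 and Psmb7 had 0.06 and 0.06 at 6 months, and 0.10 and 0.09 at 2 months. Psmb7 did not overlap between genotypes at 2 months, with 10.92, 10.87 and 10.90 in Tg2576 mice against 10.86, 10.74 and 10.81 in WT mice (limma adjusted p = 0.942). All 6 constitutive beta genes had 95% intervals within 1.3-fold either way at 2 months, and 5 of the 6 at 6 months. Of all 22206 gene probesets, 11413 at 2 months and 10805 at 6 months did.

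The induced beta genes were counted as a class together with Psmb11, the thymus form. All 4 lay above 0 at 6 months, with a median log2 fold change of 0.19 and no call. Psmb10 was 9.24, 9.24 and 9.31 in Tg2576 mice of 6 months, against 9.07, 8.93 and 9.13 in WT mice of 6 months. Psmb11 was 7.71, 7.35 and 7.66 in Tg2576 mice of 6 months, against 7.24, 7.26 and 7.29 in WT mice of 6 months. Neither pair of groups overlapped. Their log2 fold changes were 0.22 (95% interval -0.00 to 0.45; limma adjusted p = 0.582) for Psmb10 and 0.31 (95% interval -0.06 to 0.68; limma adjusted p = 0.637) for Psmb11. Psmb8 and Psmb9 had 0.11 and 0.15 at 6 months, and 0.23 and -0.08 at 2 months, with overlapping groups. Psmb8 was highest in replicate 2 of both Tg2576 groups (8.42 at 6 months and 8.41 at 2 months), against 7.87 to 8.15 on the other 10 arrays.

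Of the 7 assembly chaperones, 4 lay below 0 at 6 months and 3 above, with no call. The 3 base chaperones, Psmd5, Psmd9 and Psmd10, lay at -0.09, -0.16 and -0.13. Psmd9 measured 9.24, 9.36 and 9.35 in Tg2576 mice of 6 months and 9.43, 9.55 and 9.44 in WT mice of 6 months, without overlap. Psmg1, of the pair that starts the alpha ring, measured 8.88, 9.08 and 8.96 in Tg2576 mice of 6 months and 9.19, 9.22 and 9.12 in WT mice of 6 months, also without overlap (log2 fold change -0.20; limma adjusted p = 0.585). The other core chaperones lay between 0.06 and 0.11 at 6 months. At 2 months Psmg4 was the highest chaperone (0.21) and Psmd5 the lowest (-0.16). Psmc3ip and Psme3ip1 had -0.14 and -0.07 at 6 months, and -0.01 and 0.07 at 2 months.

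**Figure D4:**
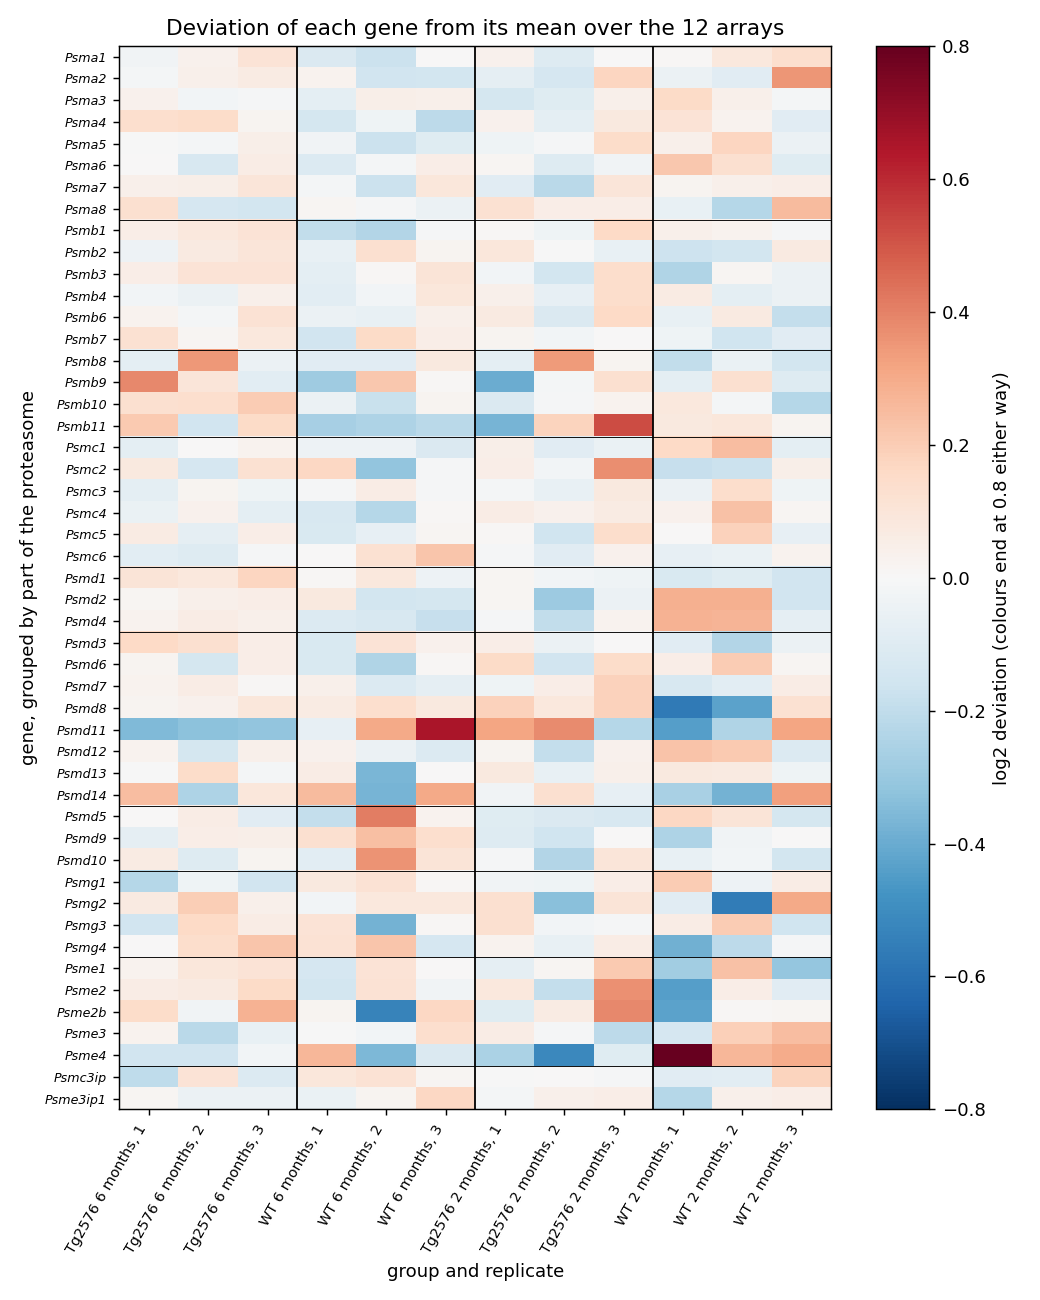
Deviation of each of the 49 proteasome genes (rows) from its own mean over the 12 arrays (columns), on the log2 scale, with colours that end at 0.8 either way and vertical lines between groups. Psme4 in WT mice of 2 months, Psmd8 in WT replicates 1 and 2 of 2 months and Psmd11 throughout stand out against mostly pale rows.

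Over all members, 7 did not overlap and were higher in Tg2576 mice at 6 months and 4 did not overlap and were lower, where 7.56% and 7.29% of all gene probesets did so. At 2 months, 2 were higher (Psmb7 and Psmd1) and 1 lower (Psme4), where 5.23% and 4.73% did. The median log2 fold change of the members was 0.07 at 6 months, with 33 of 49 above 0, and 0.01 at 2 months, with 27 of 49 above 0. The median of all gene probesets was 0.01 at both ages. With the hybridization controls as a covariate, the members' median at 6 months was 0.01. For each array, the median deviation from the 12-array mean was taken over the 47 subunits, activators and assembly chaperones. It lay at 0.03 to 0.05 in Tg2576 mice of 6 months and -0.05 to 0.01 in WT mice of 6 months. At 2 months it was -0.06 to 0.05 in Tg2576 mice and -0.05 to 0.03 in WT mice. At 6 months, markers of olfactory sensory neurons, whose axons enter the OB, averaged 9.02 to 9.23 in Tg2576 mice and 8.68 to 8.89 in WT mice (4 of 4 above 0, none called), and those of oligodendrocytes 9.09 to 9.49 in Tg2576 mice and 8.93 to 9.01 in WT mice (4 of 4 above 0, Mbp called). Their part in the members' values was not tested.

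Most of these genes varied less within groups than the median gene probeset. The median SD within groups was 0.12 for members and 0.16 for all gene probesets, and 33 of 49 members lay below the median of all. Most members were brighter than the array medians of 8.24 to 8.27, and probesets were not matched for brightness in this comparison. The 95% interval of the genotype difference lay within 1.3-fold either way for 27 of 49 members at 6 months and 31 at 2 months, and within 1.5-fold for 46 and 45. Of all 22206 gene probesets, 10805 at 6 months and 11413 at 2 months lay within 1.3-fold, and 19522 and 20249 within 1.5-fold. The sign of the fold change was the same at both ages for 25 of 49 members (51%), where 53.1% of all gene probesets kept it. The 2 ages have no arrays in common.

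By age, no member was called in Tg2576 mice, where 0.527% of all gene probesets were called. The member farthest from 0 there was Psmd11, at -0.49 ± 0.21 (SE; 95% interval -0.94 to -0.04; limma adjusted p = 0.873). In WT mice, where Psme4 was the 1 call, Psmd11 lay at the other end at 0.42 ± 0.21 (95% interval -0.03 to 0.87; limma adjusted p = 0.443). Member medians by age were 0.02 in Tg2576 mice and -0.00 in WT mice. Each comparison by age shares its arrays with the genotype comparisons.

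Genes that work with the proteasome were described from lists, by count. Of 22 listed symbols of partners (ubiquitin receptors, deubiquitinases, inhibitors and maturation factors) 16 were measured. Some of the missing symbols were older names of measured genes. Ublcp1, the nuclear phosphatase that acts on the proteasome, had 0.05 on the log2 scale at 6 months and was called lower in Tg2576 mice at 2 months (-0.52 ± 0.15; limma adjusted p = 0.762). No other partner was called for genotype. The Nrf1 route, which retrieves and processes the factor that raises proteasome genes, had 12 of 13 listed symbols measured and no genotype call. The missing symbol, Ufd1l, was an older name of a measured gene. The factor Nfe2l1 had 0.08 at 6 months and -0.04 at 2 months. Of 16 genes of class I antigen processing and the interferon response, 14 were measured, none was called for genotype, and their median was -0.01 at 6 months and -0.03 at 2 months. Of 12 heat shock genes 9 were measured, and Hspb1, a small heat shock protein, had 0.03 at 6 months and was called higher in Tg2576 mice at 2 months (0.45 ± 0.11; limma adjusted p = 0.762). Of the ubiquitin genes and their activating enzymes, 1 of 6 was measured, Uba6, at 0.20 at 6 months and -0.21 at 2 months without a call.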

How the data were processed

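OB mRNA of 12 female mice was measured on Affymetrix Clariom S arrays, 1 array per mouse, from 1 ng of RNA that was amplified. The authors made the deposited log2 intensities by RMA (background correction, quantile normalization between arrays, 1 value per probeset); for its version, the sources used here give none. Values are therefore relative to the whole array, and a shift shared by all genes cannot be seen. Only 3 arrays per group limit the precision.

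From the deposited log2 values, limma 3.58.1 in R 4.3.3 (statmod 1.5.0) was fitted to 4 group means over 12 arrays, with 8 residual degrees of freedom. Tests covered 22206 gene probesets, without 6923 control probesets; 19572 carried 1 symbol and 2634 none. Calls needed p under 0.01 before adjustment and a fold over 1.3 or under 0.7 (no fold limit for the difference between ages), with Benjamini-Hochberg values over all gene probesets beside them. Pathway and marker lists were counted, not tested. The genes named were all called members, members with an unadjusted p under 0.05 and no overlap, the highest and lowest of each class, and the catalytic, induced and activator genes; others were named after their values were seen. Members and lists, Psme4 by name, were chosen with earlier results of these data known, so no call here is independent evidence. The scripts were tested on simulated data. Alternatives were another prior, array weights, a filter on dim probesets, other scalings, a replicate block, 2 covariates, other limits and leaving out arrays. The covariates and the removal of WT mice of 6 months replicates 2 and 3 were known from earlier results. Promoter windows came from RefSeq. The human samples and the proteomic data of the study were not used here.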

Additional observations from a re-analysis of the deposited data

Results flagged for a closer look

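The genotype difference of Psmd11 was called as different between the ages, before adjustment. It was -0.63 at 6 months and 0.28 at 2 months on the log2 scale, and the test of the change itself gave -0.91 ± 0.30 (6 months minus 2 months; limma adjusted p = 0.842). The call was lost in 9 of 12 fits that left out 1 array, where the value ranged between -1.13 and -0.73. Those were each array of Tg2576 mice of 6 months (-0.92 to -0.90), WT mice of 6 months replicates 2 (-0.90) and 3 (-0.73), Tg2576 mice of 2 months replicates 1 (-0.83) and 2 (-0.80), and WT mice of 2 months replicates 1 (-0.75) and 2 (-0.85). The call was also lost with a trended robust prior (-0.91, value unchanged), with the leptomeningeal mean as a covariate (-0.84), with the hybridization controls as a covariate (-0.54) and without both WT replicates 2 and 3 of 6 months (-0.54).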

How the results depend on the processing

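The number of members called at 2 months was 2, and it became 1 in a fit to the arrays of the comparison alone and without WT mice of 6 months replicates 2 and 3, and 0 with the leptomeningeal mean as a covariate and at an adjusted p under 0.05. At 6 months the 1 call became 0 with a trended robust prior, the replicate block, the leptomeningeal mean, the hybridization controls, without WT mice of 6 months replicates 2 and 3, and at an adjusted p under 0.05. For the difference between ages the 1 call became 3 with array weights, 2 with the replicate block, 4 at an unadjusted p under 0.05, and 0 with either covariate, without those WT arrays and at an adjusted p under 0.05. A trended robust prior kept that count at 1, but the call was Psme4 and not Psmd11. By age, Tg2576 mice had 1 call with array weights in place of 0. In place of 1, WT mice had 2 calls with a trended robust prior and at an unadjusted p under 0.05 with the fold limits kept. They had 0 in a fit to the arrays alone, with either covariate, without those WT arrays and at an adjusted p under 0.05. Array weights kept the count in WT mice at 1, but the call was Psmd8 and not Psme4. The causes were not tested.

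Without 1 array, calls ranged between 1 and 2 at 2 months, 0 and 1 at 6 months, 0 and 5 for the difference (5 without WT mice of 2 months replicate 3), 0 and 1 in Tg2576 mice by age (1 without replicate 3 of 2 months), and 0 and 3 in WT mice by age (3 without replicate 3 of 2 months). Member medians ranged between -0.029 and 0.043 at 2 months, 0.043 and 0.075 at 6 months, -0.012 and 0.044 for the difference, -0.012 and 0.072 in Tg2576 mice by age, and -0.015 and 0.020 in WT mice by age. With the leptomeningeal mean as a covariate the medians were -0.089 at 2 months, 0.027 at 6 months, 0.065 for the difference and 0.079 in Tg2576 mice by age. The median at 6 months was 0.011 with the hybridization controls, and that of the difference was 0.041 with array weights and 0.052 without WT mice of 6 months replicates 2 and 3.

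Same-numbered arrays did not deviate together (18 pairs, r between -0.268 and 0.175, 4 of them over 0.1), and apart from the counts above the replicate block moved no count of calls by over 1.5 times. Among the values of members that were not called, 2220 of 2264 reruns moved by less than the spread within groups, and 44 by more. Many of these reruns could not move a value. Another prior, the filter on dim probesets and leaving out an array outside the comparison leave the fold change as it was. The count is therefore no measure of stability. With 3 arrays per group, the unadjusted p-values rest on few mice. Limma takes 1 spread per gene, pooled over the 4 groups and drawn toward that of all gene probesets. Groups of unlike spread share it, as Tg2576 and WT mice of 6 months do for Psmd11. No member passed the adjusted limit.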
